A study of Mus musculus with 5 samples.

Results

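The type I interferon response genes are the antiviral genes that cells switch on after sensing interferon alpha or beta. They were taken from a list of 41 gene symbols, of which 39 were matched among the 32285 genes of the deposited gene table; Mx1 and Mx2 are not analysed here. The cells came from flank tumours of mice injected with LLC (Lewis lung carcinoma), a cancer cell line from mouse lung. The injected cells carried a Scramble guide (3 libraries) or a guide RNA against JAG2, a ligand of Notch receptors (JAG2KO, 2 libraries). In both groups tumours were taken at the study's endpoint, dissociated, and sorted for live CD45+ cells, which are the leukocytes. Age, strain and sex of the mice are not given in the sources used here, nor is whether the JAG2KO cells were a clone or a pool. Whether each library is an animal of its own is not stated, and the p-values then speak only of the spread among these libraries, which may be technical. The title of the series asks about anti-tumour immunity and tumour-associated macrophages. The comparisons below ask in which cells the module was high, whether it differed between JAG2KO and Scramble, and whether a difference lay in the share of high-expressing cells or in the level per cell.

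Type I interferons bind a receptor of the subunits Ifnar1 and Ifnar2. Kinases at the receptor activate transcription factors, among them Stat2, which with Irf9 binds interferon-stimulated response elements in the promoters of their target genes. Among the targets are Irf7, which raises interferon production further, sensors of viral nucleic acids, effectors that block viral replication, and brakes such as Usp18. In tumours, such interferons are known to act on dendritic cells and T cells as well as on myeloid cells.

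The promoters of 4 members named below are printed as examples of these elements. Bases before the RefSeq transcription start (GRCm38.p6) are given 5′ to 3′ in the direction of the gene, and capitals mark GAAA, any 2 bases and GAAA again, or the reverse complement, TTTC, any 2 bases and TTTC. The windows are chr4:156200819-156201068 (minus strand) for Isg15, chr19:34583279-34583528 (plus strand) for Ifit3, chr8:71537473-71537722 (minus strand) for Bst2 and chr12:26456453-26456702 (minus strand) for Rsad2.
Isg15: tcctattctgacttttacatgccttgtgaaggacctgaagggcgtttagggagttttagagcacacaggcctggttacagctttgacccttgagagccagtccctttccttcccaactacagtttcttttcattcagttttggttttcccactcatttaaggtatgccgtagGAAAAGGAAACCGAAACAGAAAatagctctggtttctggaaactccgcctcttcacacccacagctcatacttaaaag
Ifit3: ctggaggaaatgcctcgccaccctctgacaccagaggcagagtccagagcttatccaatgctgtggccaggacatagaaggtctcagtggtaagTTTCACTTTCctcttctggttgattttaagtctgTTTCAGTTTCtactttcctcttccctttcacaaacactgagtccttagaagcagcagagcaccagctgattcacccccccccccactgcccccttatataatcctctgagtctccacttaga
Bst2: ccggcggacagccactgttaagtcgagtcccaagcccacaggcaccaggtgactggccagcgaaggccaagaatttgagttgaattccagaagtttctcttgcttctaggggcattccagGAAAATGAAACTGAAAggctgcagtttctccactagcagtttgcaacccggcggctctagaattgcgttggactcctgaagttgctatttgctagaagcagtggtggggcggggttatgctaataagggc
Rsad2: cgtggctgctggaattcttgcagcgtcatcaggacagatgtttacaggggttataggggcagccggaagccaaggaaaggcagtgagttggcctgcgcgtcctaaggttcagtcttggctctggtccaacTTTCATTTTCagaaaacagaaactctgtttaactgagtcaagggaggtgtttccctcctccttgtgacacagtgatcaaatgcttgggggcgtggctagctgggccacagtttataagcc
Isg15 held 3 overlapping matches, which begin 78, 72 and 66 bases before the start. Ifit3 held 2, at 156 and 122 bases, Bst2 held 2 overlapping ones, at 130 and 124 bases, and Rsad2 held 1, at 120 bases. Isg20 and Irf7, which are also named below, held none and are not printed. The table of promoters had an entry for 31 of the 39 members, and 15 of the 31 (48.4%) held a match on either strand within 250 bases before the start. The same letters were found in 936 of 27025 genes (3.46%) and in 978 of 32851 windows (2.98%). A match was found in 8 of the 16 matched members called lower in JAG2KO monocytes and in 7 of the 15 others. A match is a description of the sequence and not a measured binding site.

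For each library 10000 cells were loaded, per the study's design text, and the files held 10262 to 21854 barcodes, of which 7563 to 17791 cells were kept. The median depth was 7637.5 to 8496 UMIs per cell in 4 libraries and 2116 in JAG2KO 2, which therefore stands apart, also with the most barcodes. The 17791 barcodes kept in JAG2KO 2 outnumber the 10000 cells loaded. They are called cells here, but whether each holds a cell is not known. Pairs of libraries shared 26 to 74 barcodes, at most 0.633% of the smaller library. Jag2 itself stood at 2.98 to 4.44 CPM (UMIs per 1000000 UMIs of the cells summed) in Scramble and 2.26 to 3.58 CPM in JAG2KO. Tumour cells, which carried the guide, lack CD45, so these levels do not check the labels. Between 4773 and 13798 cells per library were gated as macrophages, 1102 to 1251 as monocytes and 109 to 474 as neutrophils. The 3 dendritic cell classes (cDC1, cDC2 and mature DC) held 45 to 173 cells each. Between 4.59% and 5.92% of kept cells passed several gates and were left out, and 4.61% to 7.71% passed none. Cells gated as fibroblast-like or tumour-like numbered 1 to 27, although the labels give the cell type as lung.

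The module's 39 members together stood at 1941 ± 198 CPM in macrophages of Scramble tumours (SD, n = 3), at 4456 ± 466 CPM in monocytes and at 4027 ± 1200 CPM in neutrophils. CD4 T cells were higher, at 5970 ± 1106 CPM, of which over the 5 libraries 54.1% came from Ifi27l2a, which codes for a small interferon-induced protein. The dendritic cells lay between, with 3140 ± 57.1 CPM in cDC2, 2870 ± 868 CPM in cDC1 and 2695 ± 614 CPM in mature DC, and NK cells stood at 1887 ± 692 CPM. Mast cells and basophils were low, at 880 ± 125 CPM, from 19, 19 and 9 cells, fewer than the 20 that a fit needed. Over the 5 libraries 42.8% of their module level came from Isg15. Scramble libraries of neighbours in this order overlapped from CD4 T cells down to NK cells, whereas monocytes (3974, 4903 and 4492 CPM) and macrophages (1727, 2116 and 1980 CPM) did not overlap. In bulk sums of a class, fewer expressing cells and less RNA per cell cannot be told apart, which is taken up per cell below. The plot of summed levels shows each class and library.

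**Figure D1:**
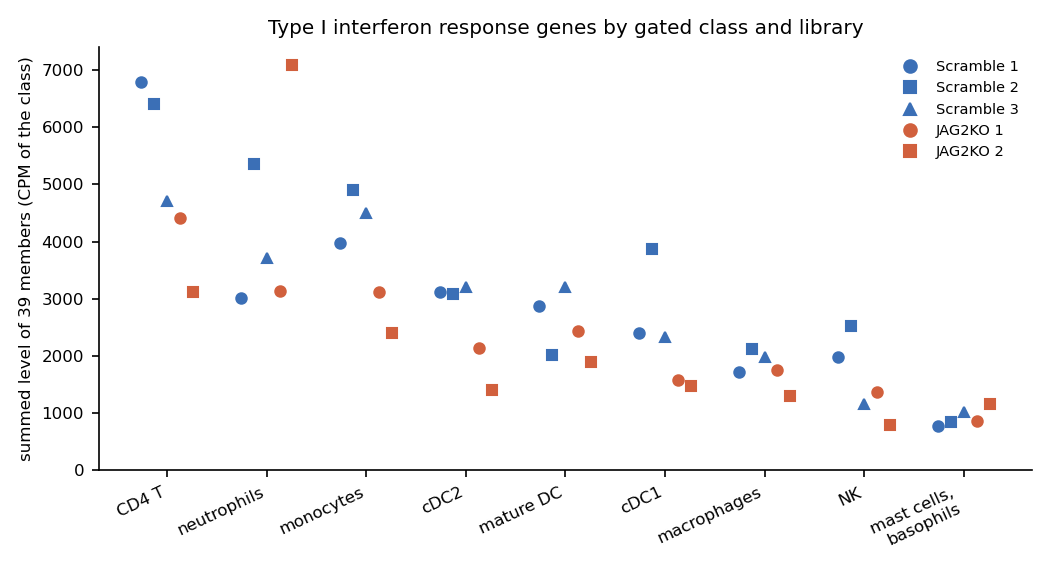
Summed level of the 39 members (vertical axis, CPM of the class) in 9 gated classes; each point is a library, blue for Scramble and orange for JAG2KO. JAG2KO points lie below all Scramble points in CD4 T cells, monocytes, cDC2 and cDC1, and JAG2KO 2 is the highest point in neutrophils; CD4 T cells of Scramble 3 number 16.

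Within the same libraries, monocytes had more RNA of 38 of the 39 members than macrophages, each with an adjusted p below the threshold (edgeR, library as a block), where 26.2% of 13694 genes were higher. The median member stood 1.33 higher on the log2 scale, and the median gene stood 0.01 lower (-0.01). Isg20, an exonuclease that degrades viral RNA, was 2.43 ± 0.16 (SE) higher in monocytes, and Isg15, a ubiquitin-like modifier, 2.09 ± 0.15. Bst2, which tethers budding virus to the cell surface, was the exception, with a difference of -0.03 ± 0.05 (adjusted p = 0.588). These differences are between cell classes and say nothing of the guide.

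Neutrophils had 28 members above macrophages, where 24.6% of all genes were higher, and 6 below, where 32.5% were lower. Among the largest differences were those of Isg20 (5.70 ± 0.16 on the log2 scale, SE), Isg15 (4.51 ± 0.15) and Rsad2, or viperin, an enzyme that makes a chain-terminating nucleotide (4.32 ± 0.14). Ifi211, Ifi203, Ifi213, Phf11b, Phf11d and Bst2 were lower, with Bst2 at -1.16 ± 0.16. The median member stood 1.62 higher, and the median gene stood at -0.47.

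Dendritic cells differed by class. In cDC2, 29 members were above macrophages (16.9% of all genes were) and none passed the threshold in the other direction. At an unadjusted p under 0.05, 1 member was lower, where 6146 of 13338 genes passed in either direction. In mature DC, 25 were higher (21.0% of all genes) and 2 lower (28.5%), with Isg15 and Herc6, a ligase for Isg15, both 2.62 higher on the log2 scale. In cDC1, 17 were higher (17.8%) and 9 lower (25.5%): Ifi211 stood 2.58 ± 0.11 higher and Rtp4, a chaperone of receptors, 4.80 below (-4.80 ± 0.53, SE). In NK cells 8 were higher (15.9%) and 12 lower (25.2%), and in CD4 T cells 15 were higher (14.3%) and 6 lower (21.4%). Isg20 was among the members higher in each of these classes.

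Between JAG2KO and Scramble, the clearest change was in monocytes, where interferon response genes fell in JAG2KO. Of the 39 members, all of which passed the filter on low counts, 22 had lower RNA in JAG2KO (edgeR, adjusted p under 0.05) and none had more; 1.33% of all 11289 genes tested were called lower. All 39 had a negative fold change, as had 49.8% of all genes, and the median was -0.80 on the log2 scale, where that of all genes was 0.000938. In 32 of the 39 both JAG2KO libraries were below all Scramble libraries, which held for 9.70% of genes. The count depended on which library was left out: 4 were called without Scramble 1, 6 without Scramble 2 or without Scramble 3, and 8 without JAG2KO 2, with medians between -0.92 and -0.61. Without JAG2KO 1, 29 were called. DESeq2 called 25, of which 20 were among the 22. The 1.33% belongs to the main fit, and the shares of all genes called in the alternative fits are not given here. With cells of at least 5000 UMIs only, an alternative chosen after seeing the data, 11 were called and the median was -0.90. Isg15 and Isg20 were called in each of these fits and under the other alternatives run.

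Isg20 stood at 38.8, 53.1 and 52.3 CPM in the Scramble monocytes against 22.3 and 16.4 CPM in the JAG2KO monocytes, which is -1.37 ± 0.18 on the log2 scale (SE; edgeR, adjusted p = 0.00868). Isg15 stood at 116, 173 and 179 CPM against 76.1 and 52.6 CPM, a change of -1.34 ± 0.21 (adjusted p = 0.0145). In both genes the groups did not overlap. Usp18, which removes Isg15 from proteins and restrains the receptor, stood at 31.1, 46.5 and 33.3 CPM against 21 and 9.99 CPM, a change of -1.27 ± 0.27 (adjusted p = 0.0420).

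The antiviral effectors were the group with the largest shifts: 6 of 8 fell, with a median of -1.32 over the 8. Ifit3, one of the proteins that bind foreign RNA ends, stood at 60.3, 89.5 and 62.4 CPM in Scramble against 31.0 and 13.8 CPM in JAG2KO (-1.68 ± 0.28, SE, adjusted p = 0.0193). Ifit3b (-1.89), Ifit2 (-1.71), the mitochondrial nucleotide kinase gene Cmpk2 (-1.22) and Bst2 (-0.58) fell as well. Bst2 stood at 224, 271 and 256 CPM in Scramble against 184 and 169 CPM in JAG2KO. Rsad2 did not pass the threshold: it stood at 154, 215 and 261 CPM against 129 and 50.7 CPM, a change of -1.28 ± 0.33 (adjusted p = 0.0841), and Ifit1 stood at -1.06 ± 0.25 (adjusted p = 0.0650). Ifit3 and Ifit3b are near-identical copies, as are Oas1a and Oas1g and, less closely, the Ifi200 and Phf11 genes, so the split of reads between the copies is uncertain.

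Of the transcription factors, Irf7 fell and the others did not pass the test. Irf7 stood at 155, 181 and 166 CPM in Scramble against 105 and 49.9 CPM in JAG2KO (-1.17 ± 0.25, SE, adjusted p = 0.0413). Stat2 stood at -0.68 ± 0.24 (adjusted p = 0.195). Irf9 stood at 39.8, 45.9 and 48.6 CPM against 48.5 and 32.1 CPM, with overlapping groups and a change of -0.21 ± 0.17 (adjusted p = 0.641).

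Among sensors and the Ifi200 family, which recognise nucleic acids in the cell, 4 of 10 fell: Ifi213 (-1.16), Ifi209 (-0.93), Ifi204 (-0.80) and Zbp1 (-0.76), a sensor of Z-form nucleic acid. In the oligoadenylate synthetase family, whose active members switch on an RNA-degrading enzyme, 3 of 6 fell, namely Oasl1 (-1.48), Oas2 (-0.87) and Oas3 (-0.85). Oasl1 stood at 34.9, 44.4 and 49.7 CPM in Scramble against 21 and 10.2 CPM in JAG2KO. Of the 9 other members 6 fell, among them Ifi44 (-1.65), Rtp4 (-1.05), Xaf1 (-0.91) and Phf11b (-0.80). The remaining ones, Trim30a (-0.60) and Ifi27l2a, are named after their values were seen. Ifi27l2a, which alone gave 30.5% of the module's level in monocytes over the 5 libraries, stood at 1319, 1402 and 1181 CPM in Scramble against 939 and 932 CPM in JAG2KO (-0.56 ± 0.12, SE, adjusted p = 0.0490).

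**Figure D2:**
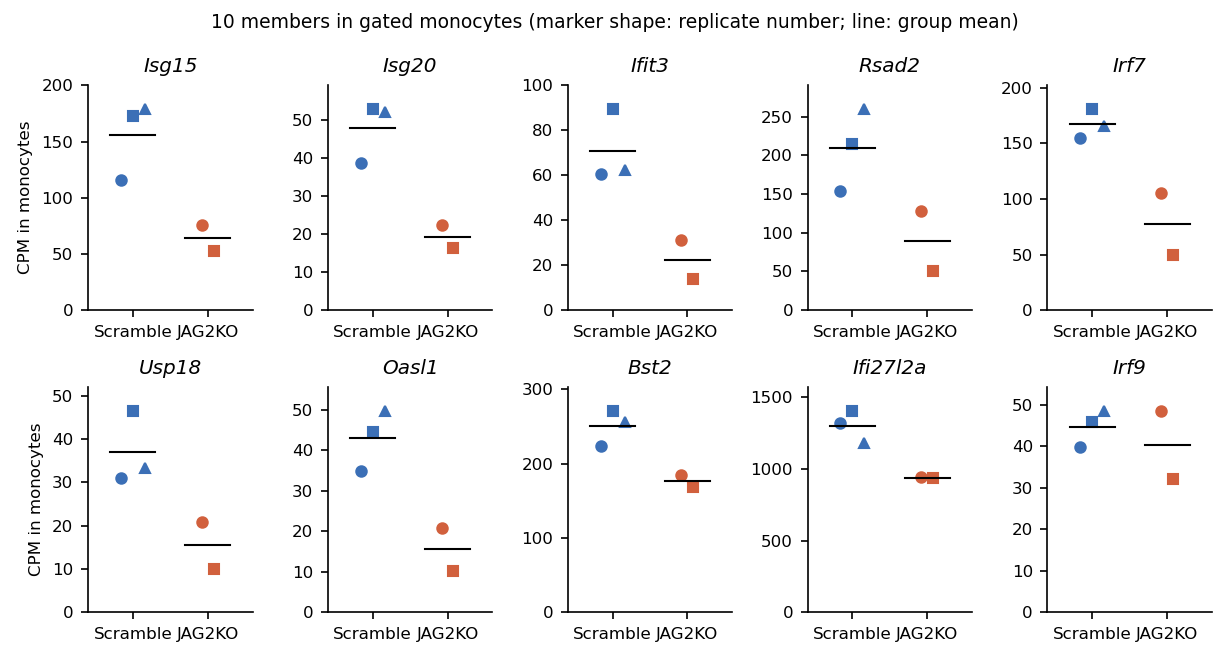
CPM (vertical axes, each from 0) of 10 members in gated monocytes, by library (points, marker shape for the replicate number) with the group mean as a line. In 9 of the panels both JAG2KO points lie below the 3 Scramble points; in Irf9 they overlap.

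Other values of the monocyte gate moved too. The summed level of the 9 neutrophil markers in monocytes was 376 to 463 CPM in Scramble and 136 to 219 CPM in JAG2KO, and S100a8, S100a9 and Il1r2 were called lower (3 of 9). No marker of that list was at 0 in every library. Neutrophils were also fewer among kept cells in JAG2KO, at 1.07% to 1.15% against 4.95% to 6.2%. Of the 22 members that fell in monocytes, 12 had a lower level in neutrophils than in monocytes over the 5 libraries. They include Bst2, Irf7, Ifi209, Ifi213 and Phf11b, whereas 10, among them Isg15 and Isg20, had a higher level in neutrophils. Of all 39 members, 23 were lower in neutrophils. The median fold change in monocytes was -0.77 over these 23 and -1.05 over the members higher in neutrophils. Of the monocyte markers Hp was called lower (1 of 8), and of the macrophage markers Ms4a7 (1 of 8). Summed monocyte markers were 7034 to 7919 CPM in Scramble against 6157 to 7161 CPM in JAG2KO. Summed macrophage markers were 2651 to 2733 CPM in Scramble against 2772 to 2929 CPM in JAG2KO. Of the other lists, 3 of 7 tested mature DC markers moved (Ccl22 and Socs2 up, Fscn1 down). Cd226 of the cDC2 list and Trbc2 of the T cell list moved as well, both upward. Summed mature DC markers were 24.3 to 31.8 CPM in Scramble against 49.6 to 75.6 CPM in JAG2KO. In the same order, cDC2 markers were 137 to 172 CPM against 207 to 226 CPM, and T cell markers 9.04 to 12.4 CPM against 25.1 to 36.6 CPM. Ly6c2 itself stood at 461, 527 and 515 CPM in Scramble against 374 and 236 CPM in JAG2KO. Median depth in monocytes was 5308 to 6178 UMIs per cell in 4 libraries and 3303 in JAG2KO 2, and the median mitochondrial share 2.33% to 2.73% and 3.63%. The part of these differences in the result was not tested. Without Ly6c2 in the gate, a gene that interferon itself raises, 21 members were lower in JAG2KO.

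In macrophages no member passed the test. The count of members called lower was 0 of 39 with edgeR, where 0.284% of 14083 genes were. At an unadjusted edgeR p under 0.05, 16 members were lower, where 2305 of 14083 genes passed in either direction. DESeq2 called 10 members, and its share of all genes is not given here. The median of the 39 was -0.40 on the log2 scale, where that of all genes was -0.00278, and 36 were negative. Without JAG2KO 1, 6 members were called lower and the median was -0.68. Without JAG2KO 2 no member was called. Smallest p-values belonged to Ifit2, at 13.5, 21 and 18.5 CPM in Scramble against 8.53 and 5.27 CPM in JAG2KO (-1.37 ± 0.25, SE, adjusted p = 0.0701), Ifit1 (-0.95 ± 0.19, adjusted p = 0.0761) and Ifit3 (-1.10 ± 0.22, adjusted p = 0.0795). In these 3 genes, picked by their p-values, the groups did not overlap. Both JAG2KO libraries were below all Scramble libraries in 18 of the 39 members and in 2037 of 14083 genes. Marker levels of the macrophage gate moved too. Summed monocyte markers were 5235 to 5888 CPM in Scramble against 4143 to 4191 CPM in JAG2KO, with none of the 8 called. Summed cDC2 markers were 52.1 to 67.5 CPM against 103 to 114 CPM, and Mmp9 of the neutrophil list was called higher (1 of 9). The part of these markers in the result was not tested.

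The other members followed with smaller or less even differences in macrophages. Isg15 stood at 21.8, 40.4 and 38.6 CPM in Scramble against 24.6 and 20.1 CPM in JAG2KO, and Rsad2 at 40.8, 55.7 and 65.0 CPM against 40.4 and 30.5 CPM. Irf7 had 43.5, 57.5 and 55.2 CPM against 39.9 and 21.3 CPM. Of these genes, Isg15 overlapped between groups. Bst2 (-0.45), Usp18 (-0.78) and Ifi27l2a (-0.50) had negative values that did not pass, as had Zbp1 (-0.16), Oasl1 (-0.39), Stat2 (-0.22) and Trim30a (-0.22). Irf9 (0.05), Parp14 (0.04) and Ifi204 (-0.05) lay near 0, and their sign changed under some alternatives.

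The difference between the classes was tested itself. In a fit with both classes and the library as a block, 13 of the 39 members had a lower JAG2KO effect in monocytes than in macrophages (edgeR; 1.45% of 13694 genes did), and none a higher one. Ifi204 led, with a difference of -0.77 ± 0.09 on the log2 scale (SE, adjusted p = 0.00625), followed by Oasl1 (-1.16 ± 0.15, adjusted p = 0.00765) and Ifi211 (-0.68 ± 0.10, adjusted p = 0.0121). The count was 3 without JAG2KO 2, 5 without Scramble 1 and 7 without Scramble 3, and all 39 members were on the negative side in the full fit. The chart of fold changes sets both classes side by side.

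**Figure D3:**
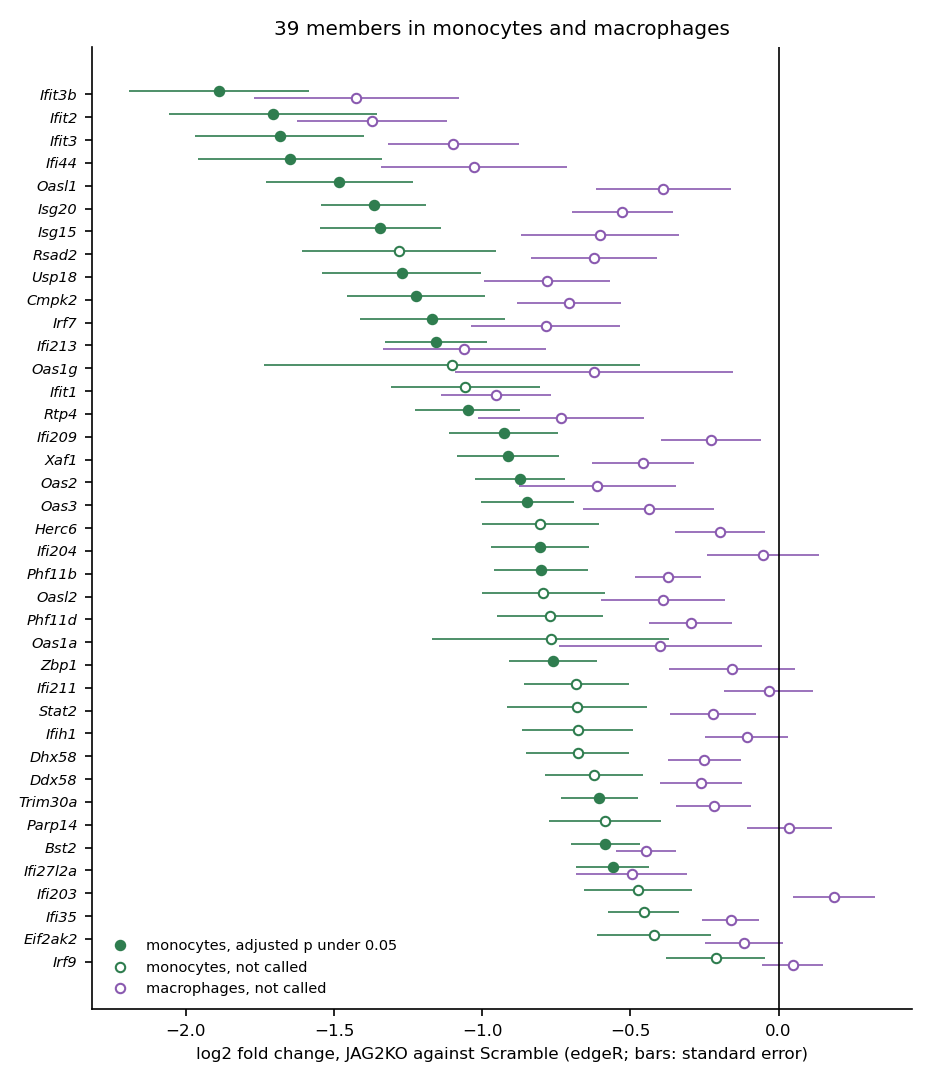
Log2 fold change of JAG2KO against Scramble (horizontal axis) for the 39 members, ordered by the value in monocytes (green) with macrophages in purple; bars are standard errors and filled points have an adjusted p under the threshold. The monocyte points are all below 0 and 22 are filled; 36 macrophage points are below 0 and none is filled.

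Dendritic cells gave similar signs on far fewer cells. In cDC1, the class that presents tumour antigens to CD8 T cells, 27 members passed the filter on low counts and 7 of them fell in JAG2KO, where 0.180% of 6107 genes were called lower. Irf7 stood at 122, 223 and 95.9 CPM in Scramble against 38.1 and 16.9 CPM in JAG2KO (-2.34 ± 0.37, SE, adjusted p = 0.00343, edgeR), from 55, 119 and 64 against 23 and 7 UMIs. Isg15 stood at 62.3, 230 and 89.9 CPM against 26.5 and 19.3 CPM (-2.45 ± 0.46, adjusted p = 0.0145). Ifi209, Ifi204, Isg20, Ifit2 and Stat2 fell too, Isg20 and Ifit2 with no UMI in JAG2KO 2. Other markers moved in the same gate: the summed level of the 9 mature DC markers was 33.4 to 52.4 CPM in Scramble against 159 to 236 CPM in JAG2KO, and both tested ones, Ccl22 and Ccr7, were called higher, while 2 of the 9 were at 0 in all libraries. Of the cDC2 list Cd226 was called higher (1 of 6 tested), at summed levels of 416 to 447 CPM in Scramble against 391 to 479 CPM in JAG2KO. The part of these markers in the result was not tested. With 43 to 54 cells of 1000 UMIs or more per library, the stricter gate called no member, against 2 without Scramble 2 and 3 by DESeq2.

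In cDC2, 32 members passed the filter and 4 fell, where 0.270% of 5925 genes were called lower. Irf7 stood at 74.8, 102 and 97.6 CPM in Scramble against 43.4 and 24.1 CPM in JAG2KO (-1.27 ± 0.26, SE, adjusted p = 0.0165, edgeR). Isg15 (-1.23), Ifi204 (-1.35) and Ifi211 (-1.22) were the others. In this gate the summed neutrophil markers were 941 to 1193 CPM in Scramble against 663 to 707 CPM in JAG2KO, with S100a8 and S100a9 called lower (2 of 3 tested, of 9). The summed mature DC markers were 218 to 234 CPM against 319.9 to 482 CPM, with Ccl22 called higher (1 of 3 tested, of 9). The part of these markers in the result was not tested. DESeq2 called none of the members, and none was called without Scramble 2, without Scramble 3 or without JAG2KO 2; 1 was called without Scramble 1 and 8 without JAG2KO 1. Irf7, Isg15 and Ifi204 thus fell in monocytes, cDC1 and cDC2 alike by edgeR, in fits that share their libraries but not their cells.

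Lymphocytes and mature DC gave no call. In mature DC 30 members passed the filter and 0 were lower in JAG2KO, against 0.0587% of all genes. At an unadjusted p under 0.05, 4 were lower, where 216 of 5114 genes passed in either direction. In CD4 T cells 13 members passed the filter and 0 were called, where 0% of all genes were. Without adjustment 6 were lower, where 120 of 3171 genes passed in either direction. Scramble 3 had 16 CD4 T cells and was left out. In NK cells 16 members passed the filter and 0 were called, again where 0% of genes were. Without adjustment 6 were lower, where 136 of 4093 genes passed in either direction. DESeq2 called none of the members in the 3 classes. The smallest p-values were those of Ifit3 (-1.78), Ifi204 (-0.91) and Rsad2 (-1.48) in mature DC, of Isg15 (-1.33), Trim30a (-1.12) and Bst2 (-1.10) in CD4 T cells, and of Ifi211 (-2.31), Isg20 (-1.53) and Usp18 (-1.40) in NK cells. Rsad2 in mature DC stood at 295 CPM in Scramble 3 and at 20.7 to 61.3 CPM in the other 4 libraries.

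Neutrophils gave no call. Of the 33 members that passed the filter, none was called in either direction, where 0.318% of 5654 genes were called higher; 7 had an unadjusted p under 0.05 and DESeq2 called none higher. The median was 0.26 on the log2 scale. The JAG2KO libraries lay on opposite sides: the summed module was 3011, 5351 and 3719 CPM in Scramble, 3127 CPM in JAG2KO 1 and 7087 CPM in JAG2KO 2, from 109 and 190 cells. Without JAG2KO 1 the median was 0.80 and 3 members were called higher, and without JAG2KO 2 it was -0.41. Isg15 stood at 191, 463 and 313 CPM against 306 and 798 CPM (0.97 ± 0.34, SE, adjusted p = 0.346), Oasl1 at 40.8, 69.3 and 42.8 CPM against 81.9 and 109 CPM (1.05 ± 0.34, adjusted p = 0.283), and Bst2 at 63.8, 116 and 58.3 CPM against 27.3 and 31.7 CPM (-1.28 ± 0.47, adjusted p = 0.381).

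The JAG2KO effect in neutrophils was higher than in macrophages for 9 members (edgeR interaction; 0.329% of 13373 genes), led by Isg15 (1.39 ± 0.24, SE, adjusted p = 1.2e-05), Ifit3 (1.82 ± 0.37, adjusted p = 0.000517) and Rsad2 (1.13 ± 0.24, adjusted p = 0.00116). DESeq2 called none, and none was called without JAG2KO 2. The count was 2 without Scramble 1, 5 without Scramble 2, 2 without Scramble 3 and 14 without JAG2KO 1.

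Elsewhere in the pathway, the calls in monocytes were among further interferon-stimulated genes. No gene passed the test in monocytes among the 5 receptor genes, 9 genes of signal transduction, 14 of nucleic acid sensing, 9 negative regulators and 25 targets of interferon gamma that were tested. Ifnar1 stood at -0.29 ± 0.13 and Ifnar2 at -0.32 ± 0.11, with adjusted p of 0.344 and 0.195, Irf3 at -0.39 ± 0.15, and Cxcl10, a chemokine for T cells, at -0.69 ± 0.20 (adjusted p = 0.127). Of 43 further interferon-stimulated genes tested, 8 fell and none rose, with a median of -0.49, where 1.33% of 11289 genes were called lower. The 8 include Ifit1bl1 (-2.03), Slfn4 (-1.63), Ifi206 (-1.18), Slfn1 (-0.99), Ms4a4c (-0.82) and Ifitm1 (-1.50), which blocks virus entry. Ifitm1 stood at 249, 279 and 200 CPM in Scramble against 56.4 and 129 CPM in JAG2KO.

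In macrophages the interferon gamma targets had positive values, without a call. Their median was 0.47, with 25 of 25 tested genes positive and none past the threshold. Socs1, a brake on interferon signalling, was the 1 negative regulator of 9 that rose, from 4.84, 5.01 and 5.48 CPM to 9.99 and 8.84 CPM (0.87 ± 0.12, SE, adjusted p = 0.0430). Over all genes, 39 of 14083 were called higher in macrophages. Cxcl10 stood at 0.19 ± 0.19. In neutrophils the median of the interferon gamma targets was 0.63, with 1 of 17 tested genes negative and none called. It was -0.11 in monocytes, -0.20 in cDC1 and -0.005 in cDC2. In cDC1 Slfn5 (-1.52) and Slfn1 (-2.80) fell among 33 further interferon-stimulated genes, where 0.180% of 6107 genes were called lower.

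The ligands themselves were barely seen. Of 20 type I and III interferon genes, 5 had a UMI, with 51 UMIs over all kept cells of the 5 libraries, or 14, 11 and 18 in Scramble and 2 and 6 in JAG2KO. Ifnb1 gave 7, 8 and 16 UMIs against 0 and 4. Ifng, the type II ligand made by T and NK cells, gave 73, 37 and 49 UMIs in Scramble and 259 and 405 in JAG2KO, in kept cells that held more T and NK cells in JAG2KO (5 to 9 CD8 T cells against 123 and 157). In gated macrophages Ifng stood at 0.0467 to 0.174 CPM against 0.511 and 1.20 CPM (2.99 ± 0.60, SE, adjusted p = 0.0782); the summed T cell markers there were 3.08 to 7.17 CPM in Scramble against 11.3 and 41 CPM in JAG2KO, and their part in this value was not tested.

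To describe the share of high-expressing cells and the level per cell, each cell was thinned to 1000 UMIs and shallower cells were left out. A cell was called high-expressing at 6 or more module UMIs, the smallest number that at most 10% of Scramble macrophages reached. The percent of cells fell steadily with rising module UMIs, without a gap at 6, so the cut is a convention. A lower level in all cells would also move cells below the cut and lower the share, so the cut cannot fully separate share from level. In Scramble monocytes 22.5%, 26.1% and 24.4% of cells were high-expressing, from 274 of 1220, 276 of 1056 and 274 of 1122 cells. In JAG2KO monocytes 16.7% and 14.9% were, from 191 of 1141 and 129 of 864 cells. Exact 95% binomial intervals account for counting error alone; their outer bounds were 20.1% and 28.9% in Scramble, 12.6% and 19.0% in JAG2KO. Depth limits the second JAG2KO value more, since 253 of its monocytes were too shallow, against 31 to 48 in the other libraries. Without thinning, 65.2%, 71.4% and 67.0% of Scramble monocytes and 63.5% and 34.1% of JAG2KO monocytes held 6 or more module UMIs, at median depths of 5308, 5656, 6178, 5709 and 3303 UMIs.

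Both share and level were lower in JAG2KO monocytes. The share was 24.3% ± 1.84 (SD, n = 3) in Scramble and 15.8% ± 1.28 (SD, n = 2) in JAG2KO. High-expressing cells held 15.6 ± 0.87 module UMIs per 1000 (SD, n = 3) against 12 ± 2.07 (SD, n = 2), and the other cells 1.62 ± 0.10 against 1.36 ± 0.26. The groups did not overlap in the share or in the level of high cells; in the other cells JAG2KO 1 (1.54) and Scramble 1 (1.55) were next to each other. Means of the library values were 5.03 UMIs per 1000 in Scramble and 3.06 in JAG2KO. Rebuilt from the group means of share and levels, the mean module level fell by 1.97 UMIs per 1000, from 5.02 to 3.05. With this cut 53.2% of the difference was assigned to the share of high cells, 36.4% to the level in them and 10.4% to the level in the others. With JAG2KO 1 as the only JAG2KO library the share gave 66.8%, and with JAG2KO 2 as the only one 45.1%.

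Choosing and measuring on the same UMIs ties the share and the level together, so the members were split alphabetically. High cells were chosen on the 20 odd members and the level was read on the 19 even ones. Of the monocyte difference, 39.8% was then assigned to the share and 35.8% to the level in high cells. With odd and even members exchanged, 39.9% was assigned to the share and 54.6% to the level. The split of members does not lift the limit of a fixed cut. Cells high in odd members were high in even ones: Scramble 1 monocytes with no odd UMI held 1.30 even UMIs on average, and those with 6 or more held 14.5. Over cells, Pearson's r between odd and even members was 0.78, 0.80 and 0.79 in Scramble libraries, against 0.72 and 0.55 in JAG2KO (1056 to 1220 and 1141 and 864 cells, all thinned to the same depth). Within single members at this depth, the share of monocytes with a UMI was lower in JAG2KO for 39 of 39 members (median ratio 0.606), and the number of UMIs per such cell for 34 (median ratio 0.936). Irf7 was found in 12.5%, 13.9% and 12.4% of Scramble monocytes and 8.50% and 4.51% of JAG2KO monocytes. At 1000 UMIs most detected cells hold 1 UMI of a given gene, which leaves little room for the level to vary.

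**Figure D4:**
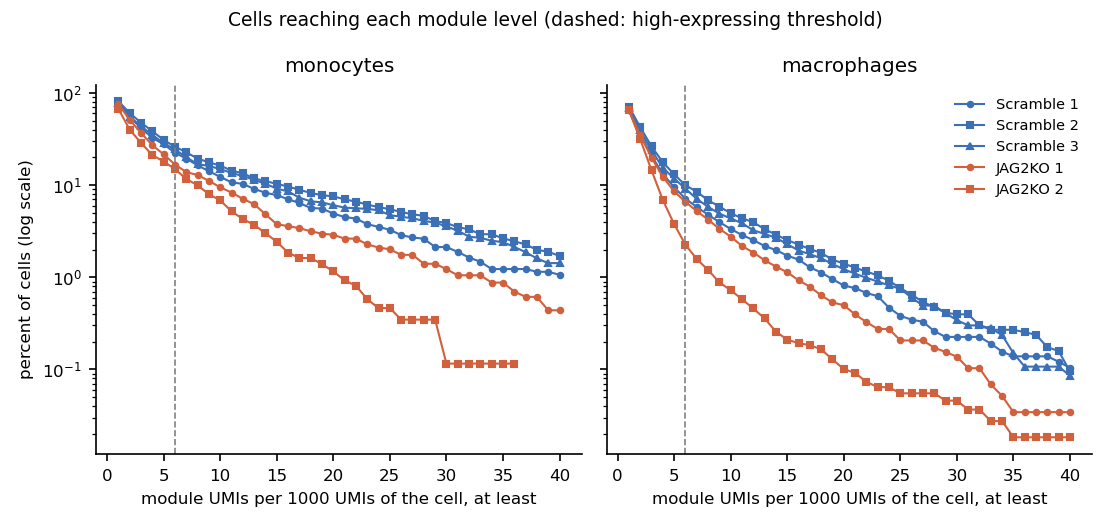
Percent of cells (vertical axis, log scale) that reach each number of module UMIs per 1000 UMIs of the cell (horizontal axis), for monocytes and macrophages; each line is a library. The JAG2KO lines run below the Scramble lines from the dashed threshold of 6 UMIs upward in monocytes, and in macrophages JAG2KO 1 runs close under Scramble 1 at the threshold while JAG2KO 2 lies far lower.

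Macrophages had fewer high cells, and the size of their difference depended on JAG2KO 2. The share was 7.15%, 9.99% and 9.16% in Scramble, 6.59% in JAG2KO 1 and 2.26% in JAG2KO 2. The 95% interval of JAG2KO 1, from 5.96% to 7.25%, overlapped that of Scramble 1, from 6.49% to 7.84%. JAG2KO 2 had a median depth of 2091.5 UMIs in macrophages against 9740 to 10432 in the other 4 libraries, and 2899 of its macrophages were too shallow for the thinning. Its 13798 gated macrophages outnumber the 10000 cells loaded, and whether each holds a cell is not known. High cells held 12 ± 0.29 UMIs per 1000 (SD, n = 3) against 10.1 ± 0.73 (SD, n = 2), and others 1.25 ± 0.09 against 1.14 ± 0.02. Rebuilt from the group means of share and levels, the mean fell from 2.20 to 1.53 UMIs per 1000. With the same cut 64.1% of this difference was assigned to the share, 19.6% to the level in high cells and 16.3% to the other cells. With high cells chosen on odd members and the level read on even ones, 30.6% was assigned to the share. Without JAG2KO 2 the share differed by -2.18 percentage points in place of -4.34, and without JAG2KO 1 by -6.51.

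**Figure D5:**
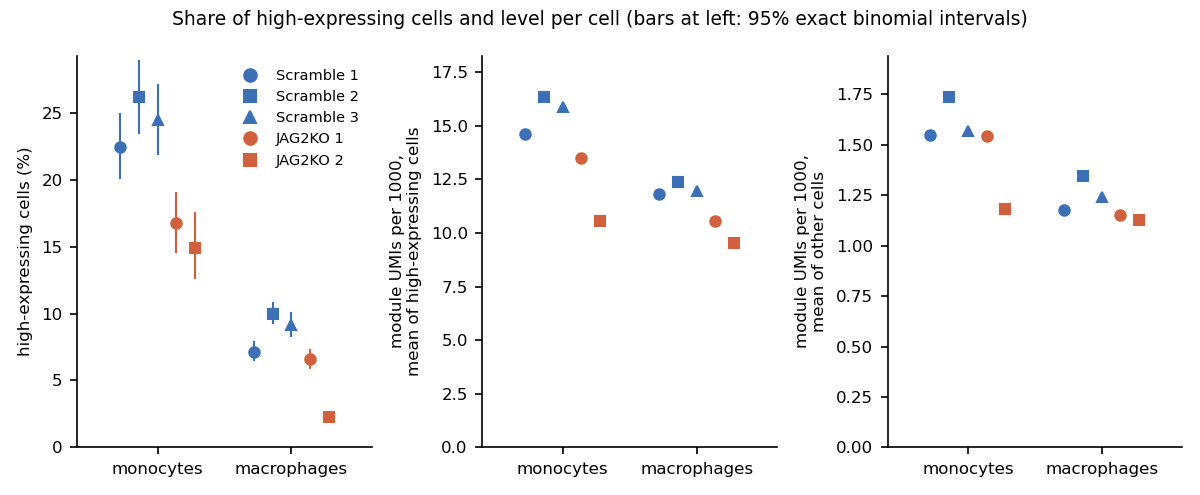
Share of high-expressing cells (left, percent, with 95% exact binomial intervals), mean module UMIs per 1000 in high-expressing cells (middle) and in other cells (right) for monocytes and macrophages; each point is a library. Shares in monocytes are 22.5% to 26.1% in Scramble and 14.9% to 16.7% in JAG2KO.

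High-expressing cells were not a feature of monocytes alone. In neutrophils 14.5%, 25.8% and 14.8% of Scramble cells and 15.8% and 35.7% of JAG2KO cells were high-expressing, so the groups overlapped. In CD4 T cells it was 25.9%, 36.4% and 31.2% against 25% and 15.2%, from 5 to 25 high cells. In cDC2 it was 7.89% to 15.3% against 9.38% and 10.5%, and in cDC1 4.44% to 18.8% against 1.85% and 6.98%, from 1 to 15 high cells in each library. In cDC1 and cDC2 the shares overlapped although the summed levels did not. Among the classes whose high cells were counted, mast cells and basophils were lowest, with 1 high cell of 95 (1.05%) at median depths of 1773 to 4218 UMIs.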

How the data were processed

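Droplet-based single-cell RNA was measured in 5 libraries. Values are raw UMI counts as deposited, 1 matrix of genes by barcodes per library, made by the authors with cellranger 6.0.0 per the file headers. The submitters' processing notes name Seurat, GRCm38 and mm10. Filters were minima of 500 UMIs and 250 genes per barcode and a maximum of 10% mitochondrial UMIs; the 8% with the highest doublet scores (an implementation of Scrublet) were then removed. Cells were gated by marker genes outside the module, with minima set on the marker UMIs after they were seen. Counts were summed per library and class and fitted with edgeR 4.0.16 (quasi-likelihood, TMM, filterByExpr). Benjamini-Hochberg adjustment ran over all genes tested, with a threshold of 0.05. A library needed 20 cells of a class. DESeq2 1.42.0 was an alternative. The fits and the thinning were tested on simulated data. For the split into shares and levels only the arithmetic was checked, on preset shares and levels. Whether the cut can tell a change of share from a change of level was not simulated.

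Members and lists were chosen with earlier results of these data known. Named members are those called in a class, up to 20 by smallest p, or the 3 smallest p where none was called, the 6 most abundant in macrophages, and a fixed set in macrophages; the latter are also given in monocytes. Other genes of the pathway are named where called, up to 6 per list, plus a fixed set. A gene of the fixed set is not reported here.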

Additional observations from a re-analysis of the deposited data

Results flagged for a closer look

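The effect of JAG2KO on interferon response genes differed between cell classes by a test of the difference itself. In 13 members it was lower in monocytes than in macrophages, with log2 differences of -0.77 for Ifi204, -1.16 for Oasl1 and -0.68 for Ifi211. In 9 members it was higher in neutrophils than in macrophages, with log2 differences of 1.39 for Isg15, 1.82 for Ifit3 and 1.13 for Rsad2. The neutrophil values rest on JAG2KO 2: without it no member was called and the median difference was -0.39. Groups of 3 and 2 libraries are too small for a test of single outlying samples.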

How the results depend on the processing

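Members lower in monocytes numbered 22, with 4 to 29 when 1 library was left out, 35 with no filter on low counts and 11 in cells of at least 5000 UMIs. For the 20 named members no fold change turned its sign, with 264 values on the same side of the threshold and 76 past it no longer. With the replicate number as a block 36 were called. Shares of all genes called are given for the main fits alone. The counts of the alternatives in each class therefore have no such background, and a larger count does not by itself speak of the members. The numbers mark no shared animal or day in the labels, and deviations of same-numbered libraries correlated at 0.13 and 0.23 over genes in monocytes and 0.01 and 0.25 in macrophages. In macrophages the count was 0, with 10 by DESeq2, 8 with no filter, 1 with doublets kept and 0 to 6 with 1 library left out. In cDC1 it was 7, with 3 by DESeq2, 12 with no filter, 0 with the stricter gate and 2 to 8 with 1 library left out. In cDC2 it was 4, with 0 by DESeq2, with the stricter gate, with cells of several gates put in the best one, and in cells of at least 5000 UMIs, 9 with no filter, 8 with the replicate block, 2 with doublets kept and 0 to 8 with 1 library left out. Mature DC had 2 with no filter and 0 to 2 with 1 library left out, CD4 T cells 0 to 1, and NK cells 1 with no filter, 1 with the block and 0 to 1. Members higher in neutrophils numbered 1 with cells of several gates put in the best one and 0 to 3 with 1 library left out. Between classes, cDC2 had 19 members above macrophages without the library block, and CD4 T cells 7 with the stricter gate. The interaction counts ran from 3 to 15 for monocytes and 0 to 14 for neutrophils with 1 library left out, and DESeq2 gave 0 for neutrophils. The share of high-expressing monocytes differed by -8.50 percentage points, by -6.45 and -11.2 with thresholds at 5% and 20% of Scramble macrophages, by -5.98 with 10% of Scramble monocytes, by -6.63 with high cells chosen on odd members, by -12.4 in cells of at least 5000 UMIs, and by -9.44 to -7.60 with 1 library left out. In macrophages that difference ran from -6.51 to -2.18 with 1 library left out, and the part of the share was 30.6% with high cells chosen on odd members.

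Some members without a call changed sign. With 1 library left out, Irf9 in macrophages ran from -0.026 to 0.11, Ifi204 from -0.35 to 0.20 and Parp14 from -0.14 to 0.20, Isg15 in neutrophils from -0.055 to 1.57, and Rsad2 in mature DC from -2.55 to 0.47. With the stricter gate Ifi204 in macrophages stood at 0.093 and Rsad2 in mature DC at 0.52, with doublets kept Parp14 in macrophages stood at -0.012, and with the replicate block Rsad2 in mature DC stood at 0.34. Ifi204 was above 0 without Scramble 2 and without JAG2KO 2, Irf9 below 0 without Scramble 1, Parp14 below 0 without Scramble 1 and without JAG2KO 1, Isg15 in neutrophils below 0 without JAG2KO 2, and Rsad2 in mature DC above 0 without Scramble 3. The cause of these changes was not tested.

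Alternatives with cells of at least 5000 UMIs, without Ly6c2, with another gate order, with a threshold from the class itself, and those of the interaction fits were chosen after seeing the data. Neutrophils in cells of at least 5000 UMIs were not fitted. With 1 JAG2KO library left, the lone library is assumed to vary like the Scramble libraries.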
